A study of Mus musculus with 3 samples.

Results

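Barcodes with UMIs of endothelial genes were compared between 2 sets of droplet libraries made from the same stage of the mouse embryo. A barcode counted as endothelial here if it held at least 5 summed unique molecular identifiers (UMIs, each 1 counted molecule) of Cdh5, Kdr, Emcn, Cldn5 and Plvap and none of the blood genes Runx1, Spi1 and Myb. It also had to pass filters of at least 1000 UMIs, at least 500 genes and at most 10% mitochondrial UMIs. These barcodes, called members below, numbered 2091 of 9383 kept barcodes. Libraries 5 and 6 held 988 and 954 of them, and libraries 1 to 4 held 46, 29, 30 and 30. The comparison therefore set 1942 members against 135. The other 14 members lay in libraries 7 and 8, outside the comparison.

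The study sampled the aorta-gonad-mesonephros region (AGM), which contains the dorsal aorta, at E10.5, from pooled embryos of 28 to 32 somite pairs. The labels name 3 sorts, each deposited as 1 sample. One took live niche cells without the erythroid antigen Ter119, another an endothelial phenotype (Ter119-CD31+VCad+CD41-cKit+), and the third the phenotype of T1-preHSCs, precursors of haematopoietic stem cells (Ter119-CD31+VCad+CD41lowcKit+). Each population was spread over a pair of lanes as technical replicates of the 10x Genomics version 2 assay, which reads the 3′ ends of transcripts. The labels give no genotype, strain, sex or treatment, and the groups share the stage, the dissection and the removal of Ter119+ cells. The deposited barcodes carry 8 suffixes in 1 pooled matrix, and no label ties a suffix to a sort, so the libraries were given no sort. A pair of lanes for each of 3 sorts does not account for 8 suffixes. What lane or library a suffix stands for is therefore not known. The spread between libraries, on which every p-value below rests, may be only technical, and it says nothing about the spread between embryos.

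Endothelial cells line the vessels and are joined by VE-cadherin, the product of Cdh5. They respond to vascular endothelial growth factor through its receptor Kdr. In the embryo they arise from mesodermal precursors that switch on the ETS factor Etv2, which then falls as vessel genes such as Pecam1, Cdh5 and Tie1 are established. In the AGM, some endothelial cells of the aorta turn into blood-forming cells.

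The 2 sets were told apart by their share of endothelial barcodes, so that share is a description. It was 2.52, 1.76, 1.89 and 1.74% of the kept barcodes in libraries 1 to 4. In libraries 5 and 6 it was 82.9 and 83.7%. The members held 404768, 301384, 254961 and 325157 UMIs in libraries 1 to 4 and 7183462 and 8858528 in libraries 5 and 6. Median UMIs per member were 8082, 9726, 8260, 10489, 6903 and 8806 in library order, so the depth per cell overlapped while the summed depth did not. In such sums, fewer cells that express a gene and less of its RNA per cell cannot be told apart. Of the members of libraries 1 to 6, 21 carried a barcode sequence that also occurred in another kept library, and 1 of them shared it with a member of the other set. Library 4 stood apart by neural genes, at 760 CPM (the genes' share of all member UMIs, on the usual CPM scale) for a list of 8 genes, against 98.8, 109 and 275 CPM in libraries 1 to 3. Library 1 stood apart by a list of 6 megakaryocyte genes at 440 CPM, of which 98.3% came from 1 cell. In libraries 2 to 4 that list stayed between 3.08 and 3.92 CPM.

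The genes of the rule are described without a test. Cdh5 stood at 183, 156, 184 and 197 CPM in the members of libraries 1 to 4 and at 318 and 322 CPM in libraries 5 and 6. Both libraries of the second set lay above all 4 of the first. Kdr, in contrast, stood at 484, 388, 592 and 443 CPM against 477 and 473 CPM, with both values of libraries 5 and 6 inside the range of libraries 1 to 4. Cldn5, a tight junction gene, ranged from 956 to 1322 CPM in libraries 1 to 4 and stood at 1144 and 1115 CPM in libraries 5 and 6. Emcn, an endothelial sialomucin, stood at 652, 448, 686 and 584 CPM against 826 and 815 CPM. Plvap, a protein of endothelial diaphragms, was at 331, 182, 275 and 163 CPM against 328 and 344 CPM. Of the 5 genes used for the choice, Cdh5 and Emcn did not overlap between the sets and the other 3 did. Of all 4879 genes tested below, 23.5% did not overlap.

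The lower edge of the rule held different barcodes in the 2 sets. The 11 barcodes of libraries 1 to 4 with exactly 5 UMIs of the rule genes had no Pecam1 UMI and 60.2 CPM for a list of 16 other pan-endothelial genes. The 15 such barcodes of libraries 5 and 6 had 96.5 CPM of Pecam1 and 2960 CPM for that list. Just outside the rule, at 4 UMIs, the list stood at 42.3 CPM in 3 barcodes and 2488 CPM in 4 barcodes, respectively. Among all members, 20 of 135 in libraries 1 to 4 had fewer than 3 UMIs of the pan-endothelial list, or 14.8% (exact 95% binomial interval 9.29 to 21.9%). By library these were 3, 7, 3 and 7 members. Libraries 5 and 6 had 0 of 1942, which allows a share of up to 0.190% by the same interval. Intervals here and below cover counting error only. These 20 members carried no UMI of Cdh5, Pecam1 or Cd34, and passed the rule mainly through Cldn5 (70 UMIs) and Kdr (55 UMIs). Pecam1 and Cd34 are on the list by which the 20 members were chosen, so their absence is largely fixed by the choice. Cdh5 is not on that list. For these barcodes the name endothelium goes against its defining markers, and counts are given below with and without them.

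**Figure D1:**
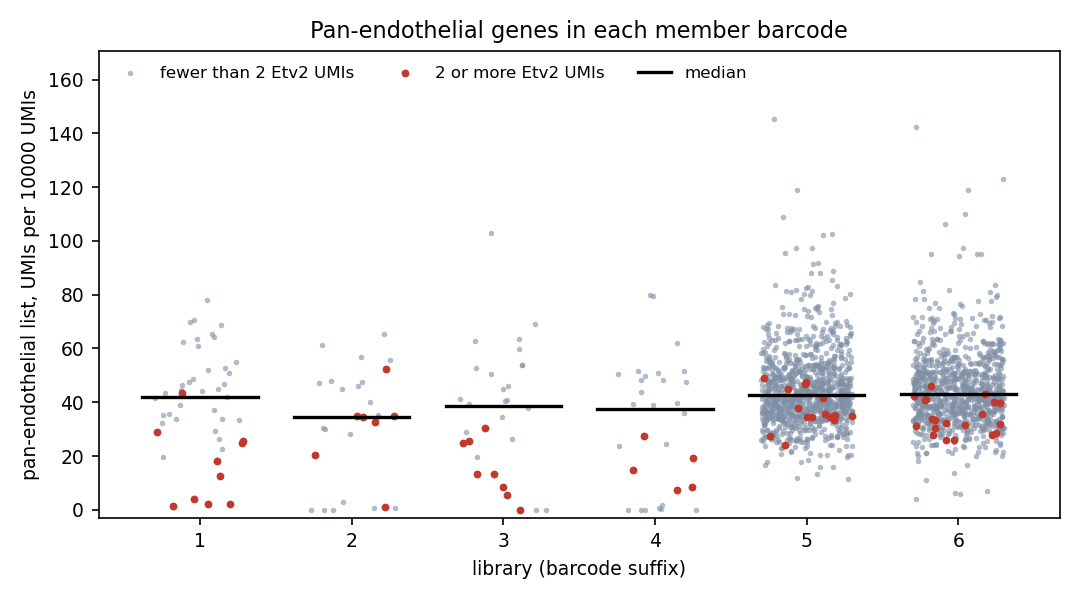
Summed UMIs of the 16 pan-endothelial genes per 10000 UMIs (y axis) in each member barcode (points) of libraries 1 to 6 (x axis), with the median of each library as a bar. Red points have 2 or more UMIs of Etv2. The points at or near 0 lie in libraries 1 to 4, where 20 of 135 members had fewer than 3 of these UMIs.

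Markers of surrounding tissue were also higher in the members of libraries 1 to 4. A list of 42 markers of mesenchyme, sclerotome, myotome, nerve, coelomic and nephric epithelium and germ cells stood at 257, 328, 373 and 960 CPM in libraries 1 to 4 and at 102 and 109 CPM in libraries 5 and 6. In libraries 5 and 6 the neural list gave 65.7 and 77.6 CPM of this, of which 94.1 and 88.6% were UMIs of Stmn2 alone. Barcodes with at most 1 UMI of the rule genes, called non-endothelial, served as the source of free RNA, the RNA released into the cell suspension. There were 6544 in libraries 1 to 4 and 294 in libraries 5 and 6. Dividing the marker level of the members by that of the non-endothelial barcodes of the same library gave an estimate of free RNA and doublets. This estimate takes all marker UMIs of members as such, even where a member is itself a cell of another tissue. It was 11.5, 14.5, 17.3 and 40.7% of member UMIs in libraries 1 to 4 and 2.21 and 2.52% in libraries 5 and 6. The means were 21.0% ± 13.4 (SD, n = 4) and 2.37% ± 0.216 (SD, n = 2), with no overlap. The exact two-sided permutation p was 0.133, the smallest that 2 libraries against 4 can give. The estimate for libraries 5 and 6 turned on the germ cell genes, which made up 3599 and 3628 CPM of the marker level of their non-endothelial barcodes. Without those genes, a choice made after seeing the data, it was 11.0, 13.9, 17.1 and 41.0% in libraries 1 to 4 and 7.90 and 13.1% in libraries 5 and 6, so the sets overlapped (exact permutation p = 0.267). By single list the ratio in libraries 5 and 6 ran from 0.6 and 0.5% for germ cell genes to 8.9 and 19.9% for neural genes and 13.7 and 17.6% for sclerotome genes. In libraries 1 to 4 it ran from 3.8 to 105.7%, both for coelomic and nephric genes. Among members without 5 or more of the marker UMIs, the means by the full list were 4.53 and 1.39%. With at least 3 UMIs of the pan-endothelial list, a condition added after seeing the data, the estimate was 8.90, 3.48, 7.87 and 6.56% in libraries 1 to 4. It stayed at 2.21 and 2.52% in libraries 5 and 6. In libraries 1 to 4, 1 cell held 16.3, 21.2, 46.3 and 30.1% of the UMIs of the 42 markers. How much of the estimate is free RNA was not tested.

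**Figure D2:**
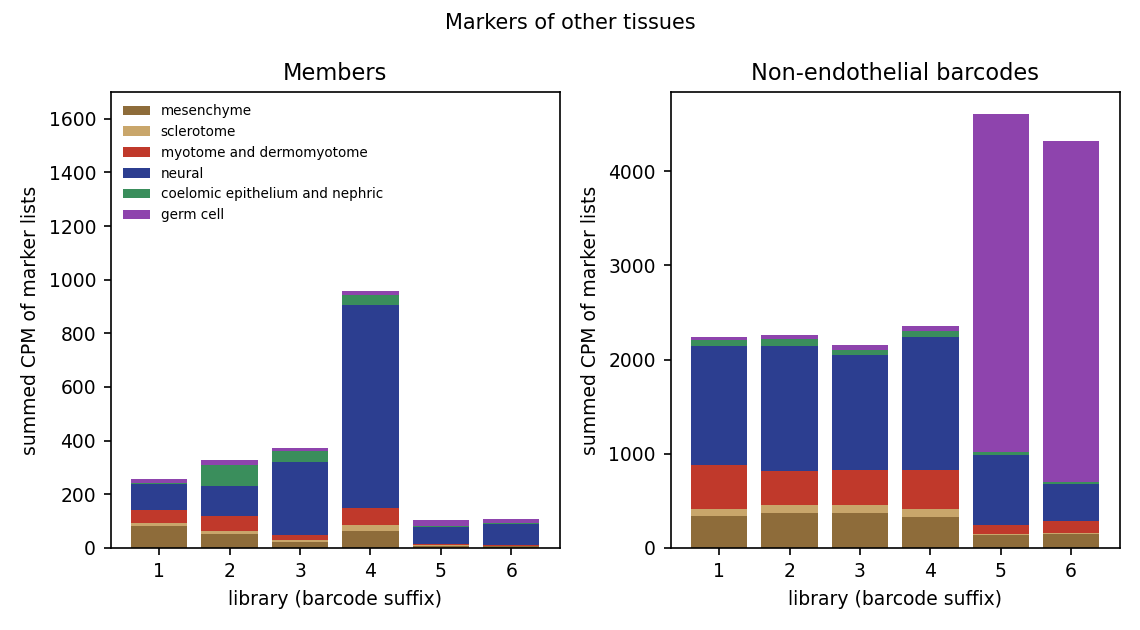
Summed CPM (y axes) of 6 marker lists of other tissues in the members (left) and in the non-endothelial barcodes (right) of each library (x axes), as stacked bars on different scales. Member levels ran from 257 to 960 CPM in libraries 1 to 4 and stood at 102 and 109 CPM in libraries 5 and 6, while the non-endothelial barcodes of libraries 5 and 6 were mostly germ cell signal.

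The members of libraries 5 and 6 had more RNA of vessel wall genes, and those of libraries 1 to 4 more RNA of Etv2 and of genes that the non-endothelial barcodes also hold. Of 4879 genes that passed the filter on low counts, 174 were called higher in libraries 5 and 6 (3.57%) and 160 lower (3.28%) at an adjusted p under 0.05, together 6.85%. The test was edgeR's quasi-likelihood test on summed UMIs per library, with Benjamini-Hochberg adjustment over all genes tested, as for every adjusted p below. Without TMM scaling the numbers were 136 and 216. Without library 1 they were 160 and 153, and without library 4, 156 and 133. Without library 5 they fell to 40 and 34, and without library 6 to 26 and 37, with 1 library then standing for its set. Most differences were small, with a median log2 fold change of 0.60 over the genes called higher, -0.76 over those called lower and -0.01 over all genes tested. Changes of at least 2-fold numbered 16 of the 174 and 59 of the 160. The levels of the sets did not overlap for 167 and 150 of the called genes, against 23.5% of all genes tested. In the non-endothelial barcodes of libraries 1 to 4, 116 of the 160 genes called lower stood above their level in the members of the same libraries (72.5%), against 46.9% of all genes tested. Above the level in the members of libraries 5 and 6 there were 151 of the 160 (94.4%), against 53.9% of all genes tested, but that comparison is partly fixed by the choice of genes low in libraries 5 and 6. The filter on low counts asked for about 27.4 CPM in 2 libraries. Of the 160, 64 reached it only through libraries 1 to 4, and of the 174, 16 only through libraries 5 and 6. Among all 4884 genes fitted, the rule genes included, these were 656 and 118. For such genes the direction is partly fixed by the filter.

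The pan-endothelial list carried the clearest difference among the groups of vessel genes. Of its 16 genes 14 passed the filter, and 12 of these were called higher in libraries 5 and 6, none lower, with a median log2 fold change of 0.60. Of the 14, 1 reached the level of the filter only through libraries 5 and 6. Pecam1, the gene of the sorting antigen CD31, stood at 141, 103, 137 and 86.1 CPM in libraries 1 to 4 and at 179 and 177 CPM in libraries 5 and 6. The sets did not overlap, with a log2 fold change of 0.64 ± 0.13 (SE) and an adjusted p of 0.00207. Ramp2, a partner of the adrenomedullin receptor, stood at 628, 521, 565 and 526 CPM against 809 and 830 CPM (log2 fold change 0.58 ± 0.07, adjusted p = 7.55e-06). Tie1, a receptor tyrosine kinase of endothelium, stood at 59.3, 39.8, 58.8 and 52.3 CPM against 87.4 and 92.2 CPM (log2 fold change 0.81 ± 0.17, adjusted p = 0.00304). In both cases all 4 libraries of the first set were below both of the second. Flt1, the decoy receptor for vascular endothelial growth factor, differed by 0.65 on the log2 scale, the guidance receptor Robo4 by 1.02, and the sialomucin Cd34 by 0.32. Without library 2 neither Robo4 nor Cd34 passed the test, and Robo4 also did not without library 3. With at least 10 UMIs of the rule genes Pecam1 lost its call (0.37, adjusted p = 0.12), as did Tie1, Flt1, Robo4 and Cd34, while Ramp2 kept it (0.32, adjusted p = 0.0159). Without members of 5 or more other-tissue UMIs Pecam1 was not called either (0.33, adjusted p = 0.184). Egfl7, the most abundant gene of the list, ranged from 674 to 991 CPM in libraries 1 to 4 and stood at 973 and 957 CPM in libraries 5 and 6, and was not called (adjusted p = 0.0809).

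Genes of veins and of the basement membrane were partly higher, and arterial genes were not called. Of 11 venous and lymphatic-type genes 7 were tested, and 2 were called higher and none lower. Aplnr, the apelin receptor of venous endothelium, stood at 173, 139, 192 and 200 CPM in libraries 1 to 4 and 311 and 303 CPM in libraries 5 and 6 (log2 fold change 0.84 ± 0.10, adjusted p = 5.35e-06). Flt4, the receptor for lymphatic growth factors, stood at 84.0, 83.0, 82.4 and 46.1 CPM against 129 and 119 CPM (0.78 ± 0.16, adjusted p = 0.00222). Neither gene overlapped between the sets. With at least 10 UMIs of the rule genes Aplnr kept its call (0.57, adjusted p = 0.00481) and Flt4 lost it. The venous transcription factor Nr2f2 ranged from 93.9 to 108 CPM against 91.0 and 80.8 CPM, and was not called, but it is also a gene of the surrounding tissue, at a mean of 106 CPM in non-endothelial barcodes of libraries 1 to 4.

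Of 15 arterial genes, 4 passed the filter and none was called. All 4 had log2 fold changes below 0, with a median of -0.36. However, 3 of the 4 reached the level of the filter only through libraries 1 to 4, so this direction is partly fixed by the filter. The gap junction gene Gja4 ranged from 3.32 to 51.0 CPM in libraries 1 to 4 and stood at 20.9 and 18.3 CPM in libraries 5 and 6. Sox17, a regulator of arterial and haemogenic endothelium, stood at 29.6, 23.2, 31.4 and 21.5 CPM against 16.6 and 19.6 CPM. Its sets did not overlap but it did not pass the test (adjusted p = 0.369). With each member thinned to 3000 UMIs, members with more arterial than venous UMIs made up 18.2, 27.6, 13.3 and 23.3% of libraries 1 to 4 and 11.3 and 12.3% of libraries 5 and 6. These means of 20.6% ± 6.19 (SD, n = 4) and 11.8% ± 0.750 (SD, n = 2) gave an exact permutation p of 0.133, and 0.4 when at least 10 UMIs of the rule genes were asked for. The arterial list includes genes such as Nrp1 and Mecom that the non-endothelial barcodes also express, at means of 86.9 and 18.6 CPM in libraries 1 to 4, and their part in the share was not tested.

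Of 16 basement membrane and matrix genes 13 were tested, 4 were called higher and none lower. Of the 13, 2 reached the level of the filter only through libraries 5 and 6. Col4a1 and Col4a2, the type IV collagen chains of vessel basement membrane, are neighbouring genes. Col4a1 stood at 109, 103, 129 and 64.6 CPM against 168 and 169 CPM (log2 fold change 0.79 ± 0.14, adjusted p = 0.000531). Col4a2 had a log2 fold change of 0.64, Hspg2, which encodes perlecan, 0.64, and Col18a1 0.59. Leaving out library 5 or 6 ended the calls of most vessel genes named here, but not those of Ramp2, Flt1, Aplnr, Col4a1 and Col4a2. With at least 10 UMIs of the rule genes Col4a1 kept its call (0.52, adjusted p = 0.0365), and Col4a2, Hspg2 and Col18a1 lost theirs. The abundant matrix gene Sparc was not called, at 806 to 1035 CPM against 969 and 987 CPM.

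Etv2 had the smallest adjusted p of all genes tested. Its gene (mm10 chromosome 7, 30633616 to 30636509) stood at 272, 173, 263 and 221 CPM in libraries 1 to 4 and at 12.3 and 11.7 CPM in libraries 5 and 6. All 4 libraries of the first set lay far above both of the second, with a log2 fold change of -4.24 ± 0.16 and an adjusted p of 7.59e-16. With 1 library left out, the Etv2 log2 fold change lay between -4.36 and -4.16. The non-endothelial barcodes of libraries 1 to 4 held a mean of 0.786 CPM of Etv2, far below the members of the same libraries. After free RNA subtraction the log2 fold change was -4.54 (adjusted p = 4.14e-12). Etv2 lay below the filter level of about 27.4 CPM in libraries 5 and 6, so its direction is partly fixed by the filter. With every gene of at least 1 UMI tested, its log2 fold change was -4.15.

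The UMIs of Etv2 came from a minority of members. At least 2 UMIs of Etv2 were found in 10, 7, 8 and 5 members of libraries 1 to 4 (30 of 135, 22.2%, exact 95% interval 15.5 to 30.2%) and in 16 and 20 members of libraries 5 and 6 (36 of 1942, 1.85%, 1.30 to 2.56%). With members thinned to 3000 UMIs, the share with any Etv2 UMI was 22.7, 27.6, 33.3 and 13.3% against 2.97 and 2.46%, so every library of the first set was above both of the second. Unthinned, the shares were 26.1, 34.5, 33.3 and 20% against 5.77 and 6.81%. Among barcodes that were not members, it was between 0.433 and 0.785% in libraries 1 to 4, at median depths of 6546 to 8632 UMIs. In libraries 5 and 6 it was 2.94 and 2.15% of non-members, below the unthinned share of the members there. In library 4, 37 of the 72 Etv2 UMIs came from 1 cell. The highest cell of libraries 1, 2 and 3 gave 27 of 110, 12 of 52 and 16 of 67 UMIs.

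The members of libraries 1 to 4 with at least 2 Etv2 UMIs had a gene profile that set them apart, described here with no test because they were chosen on Etv2 after it had been seen. Summed over the 30 members, Kdr stood at 566 CPM, near the 522 CPM of the 83 members of the same libraries with at least 3 pan-endothelial UMIs and no Etv2. Cdh5 stood at 26.3 against 297 CPM in the same comparison, and Pecam1 at 3.29 CPM, which is 1 UMI, against 201 CPM. Cd34 stood at 39.5 against 566 CPM and Aplnr at 13.2 against 288 CPM. Lmo2 and Tal1, partners in a transcription factor complex of blood and vessel precursors, stood at 579 against 237 CPM and 102 against 10.8 CPM. Gadd45g, a growth arrest and stress gene, stood at 658 against 58.0 CPM, and Dlk1, an imprinted gene of the Notch ligand family, at 355 against 29.7 CPM. Meox1, a gene of somites, stood at 88.8 against 12.1 CPM, and Hoxc10, a posterior Hox gene, at 109 against 13.5 CPM. Cldn5 was at 1234 against 1140 CPM. Kdr and Cldn5 are genes of the rule, so a barcode low in Cdh5 had to hold UMIs of these or of Emcn or Plvap to be a member. Pecam1 and Cd34 are on the pan-endothelial list by which the 83 members were chosen, and the 30 members met no such condition. The differences in Pecam1 and Cd34 are therefore partly fixed by that choice, and its part in the other genes was not tested.

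In each of libraries 1 to 4, Cdh5, Pecam1, Cd34 and Aplnr were lower and Lmo2, Gadd45g, Dlk1 and Hoxc10 higher in the Etv2 members than in the members with pan-endothelial UMIs and no Etv2. Tal1 went the other way in library 3 (13.8 CPM, 1 UMI, against 19.2 CPM) and Meox1 in library 2 (25.9 against 57.9 CPM). Cdh5 in the Etv2 members stood at 9.43, 77.8, 13.8 and 0 CPM (1, 6, 1 and 0 UMIs), and Lmo2 at 481, 506, 733 and 680 CPM. Tal1 stood at 179, 104, 13.8 and 61.9 CPM. The 36 members of libraries 5 and 6 with at least 2 Etv2 UMIs kept more Cdh5, Pecam1 and Cd34, but most of these genes shifted the same way. They held 216 CPM of Etv2, 204 CPM of Cdh5, 75.4 CPM of Pecam1 and 298 CPM of Cd34. Their median was 43.5 UMIs of the pan-endothelial list, against 15.5 in the 30 members of libraries 1 to 4. In the 1820 members of libraries 5 and 6 with pan-endothelial UMIs and no Etv2, those 3 vessel genes were higher (328, 184 and 433 CPM). Lmo2, Gadd45g, Dlk1 and Hoxc10 were lower in the 1820 members (206, 33.7, 10.0 and 1.71 CPM). The 36 members had 263, 149, 75.4 and 28.5 CPM of them. Kdr was lower in the 36 members (312 CPM) than in the 1820 (486 CPM), unlike in libraries 1 to 4. One of the Etv2 members of library 1 is also the cell with megakaryocyte UMIs, since the members with Etv2 there held 149 UMIs of the platelet gene Pf4. The median count of other-tissue markers was 1.5 UMIs in the 30 members, and 15.5 UMIs in the 20 members with fewer than 3 pan-endothelial UMIs. These groups overlap, and both held the 149 Pf4 UMIs of library 1.

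**Figure D3:**
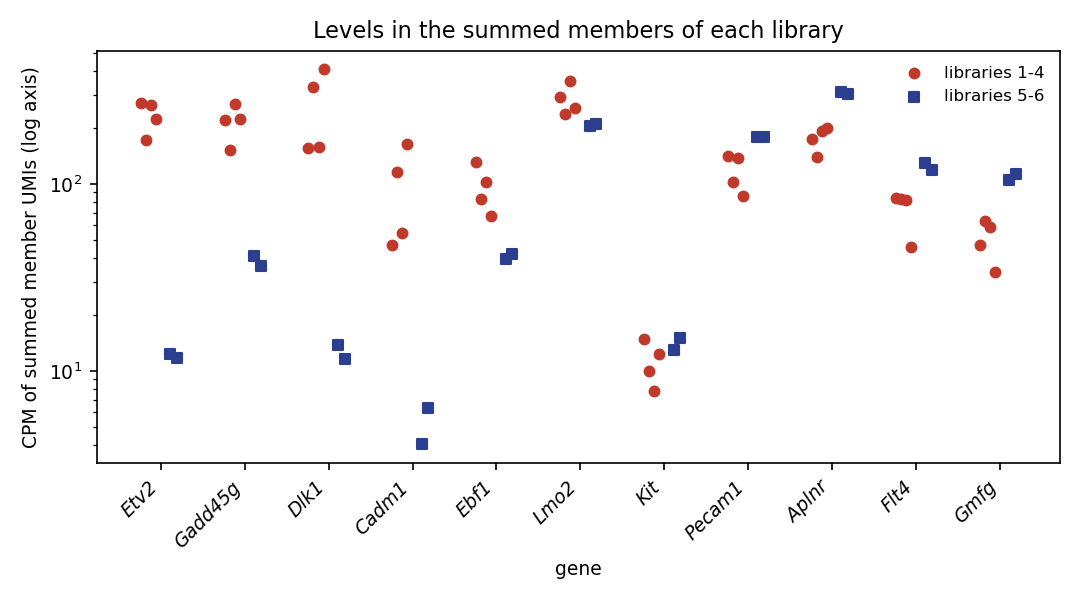
CPM of 11 genes (y axis, log scale) in the summed members of each library, with the 4 points of libraries 1 to 4 as circles and the 2 points of libraries 5 and 6 as squares. Etv2 spans 173 to 272 CPM in libraries 1 to 4 and 11.7 to 12.3 CPM in libraries 5 and 6, whereas Kit overlaps between the sets.

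Regulators that endothelium shares with blood did not move as 1 group. Of 18 haemogenic and blood-endothelial genes 6 were tested, 1 was called higher and 1 lower, with a median log2 fold change of 0.10. Lmo2 stood at 292, 236, 357 and 255 CPM in libraries 1 to 4 and at 203 and 210 CPM in libraries 5 and 6 (log2 fold change -0.41 ± 0.10, adjusted p = 0.0123, not called without library 3, 5 or 6). Lyl1, which encodes a helix-loop-helix factor related to Tal1, went the other way, at 69.2, 49.8, 31.4 and 67.7 CPM against 112 and 103 CPM (0.96 ± 0.17, adjusted p = 0.000865). Neither gene overlapped between the sets. The ETS factors Fli1 and Erg, with log2 fold changes of 0.31 and 0.66, were not called (adjusted p = 0.250 and 0.0527).

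Kit, the receptor gene behind both sorting gates for cKit, was low, and its values overlapped between the sets. It stood at 14.8, 9.95, 7.84 and 12.3 CPM in libraries 1 to 4 and at 12.9 and 14.9 CPM in libraries 5 and 6. The means were 11.2 ± 3.01 (SD, n = 4) and 13.9 ± 1.38 (SD, n = 2), and the exact two-sided permutation p was 0.267, in a design that cannot go below 0.133. With members thinned to 3000 UMIs, 6.82, 3.45, 6.67 and 3.33% had a Kit UMI in libraries 1 to 4 and 3.18 and 4.18% in libraries 5 and 6, and the sets overlapped. Unthinned, the shares were 13.0, 10.3, 6.67 and 10% against 8.70 and 12.6%. The non-endothelial barcodes of libraries 1 to 4 had one in 2.22 to 3.18%, unthinned, at median depths of 6520 to 8607 UMIs, below every unthinned share of the members. In libraries 5 and 6 the non-endothelial share was 21.1 and 26.5%, where germ cell markers, a type that carries Kit, stood at 3599 and 3628 CPM. Of the other sorting antigens, Itga2b, which encodes CD41, had 24.7 CPM in library 1 and at most 3.92 CPM in libraries 2 to 6. Itga2b belongs to the megakaryocyte list, of which 98.3% of the UMIs in library 1 came from 1 cell.

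Of 15 BMP and TGF-beta genes 9 were tested, 1 was called higher (Eng, a coreceptor also on the pan-endothelial list) and 2 lower. The lower ones were Id1 and Id2, which encode inhibitors of helix-loop-helix factors and are targets of BMP signalling. Id1 stood at 81.5, 192, 275 and 135 CPM in libraries 1 to 4 and 91.0 and 95.8 CPM in libraries 5 and 6, so the sets overlapped (log2 fold change -0.73 ± 0.19, adjusted p = 0.0183). It was not called without library 2, 3, 5 or 6, and Id2 (-0.64 ± 0.14, adjusted p = 0.00542) not without library 3, 5 or 6. With DESeq2 the Id1 log2 fold change was not called either (adjusted p = 0.345). Id2 stood at a mean of 192 CPM in non-endothelial barcodes of libraries 1 to 4, above its 91.4 to 141 CPM in the members there. Of 14 Notch genes 2 were tested. Of these, Rbpj lay above the filter level of about 27.4 CPM in library 5 and below it in library 6. It thus needed libraries 1 to 4 to pass the filter, which asks for 2 libraries. The direction of its call is thus partly fixed by the filter. Rbpj, the DNA-binding partner of Notch, was called lower at 66.7, 39.8, 31.4 and 46.1 CPM against 29.37 and 25.96 CPM (-0.77 ± 0.23, adjusted p = 0.0406), but not when library 1, 2, 4, 5 or 6 was left out, and with DESeq2 the Rbpj log2 fold change had an adjusted p of 0.0688. Notch1 was not called, and of 10 flow-responsive genes 4 were tested and none was called. None of 4 tip cell genes tested of 9 was called.

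Cell cycle and metabolism differed little. All 20 S phase genes and all 20 G2/M genes were tested, with 1 call in each list. Nasp, a histone chaperone, was lower at 437, 518, 486 and 492 CPM against 334 and 354 CPM (log2 fold change -0.44 ± 0.08, adjusted p = 0.000596). Birc5 (survivin) was called higher by 0.31, but its sets overlapped and the call was lost without library 2, 3 or 4, without TMM scaling and with DESeq2 (Birc5 log2 fold change 0.31, adjusted p = 0.363). The lists' medians were -0.10 and 0.14. Of 12 glycolysis genes tested of 15, the glucose transporter Slc2a1 was higher at 88.9, 89.6, 94.1 and 86.1 CPM against 135 and 138 CPM (0.65 ± 0.13, adjusted p = 0.00195), and Gapdh was lower by 0.22 (log2 fold change -0.22), a call lost without library 2 or without library 4. None of 13 cholesterol synthesis genes tested was called. Of 9 immediate early and heat shock genes tested, Jun, Ier2 and Hsp90aa1 were lower in libraries 5 and 6, by log2 fold changes of -0.64, -0.38 and -0.32, and none was higher. Ier2 was not called without library 1 or without library 3. Every call named in this paragraph was lost without library 5 and without library 6.

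Hox genes, which mark position along the body axis, were lower in libraries 5 and 6. Of 20 Hox genes 9 were tested, 7 were called lower and none higher, with a median log2 fold change of -1.13. Of the 9, 7 reached the level of the filter only through libraries 1 to 4, so the direction of the list is partly fixed by the filter. Hoxc10 stood at 39.5, 79.6, 35.3 and 67.7 CPM in libraries 1 to 4 and at 2.37 and 3.16 CPM in libraries 5 and 6 (-4.26 ± 0.64, adjusted p = 0.000104). Hoxc6 stood at 56.8, 36.5, 51.0 and 36.9 CPM against 1.53 and 2.37 CPM (-4.46 ± 0.74, adjusted p = 0.000322). Hoxa7 differed less, at 66.7, 66.4, 86.3 and 83.0 CPM against 43.6 and 47.5 CPM (-0.67 ± 0.17, adjusted p = 0.0147), and was not called without library 3, 4, 5 or 6. None of these genes overlapped between the sets. The non-endothelial barcodes of libraries 1 to 4 held more of each, with means of 75.4, 98.7 and 152 CPM. After free RNA subtraction no Hox gene was called, and Hoxc10 kept a log2 fold change of -4.26 with an adjusted p of 0.180.

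Subtracting free RNA by the estimate above left few calls. For this, the estimated share of each library times the profile of its non-endothelial barcodes was taken off the member sums before the same test. Of 4435 genes tested, 2 were higher (0.0451%) and 15 lower (0.338%). Genes called with the same sign both before and after numbered 1 higher and 14 lower, or 0.307% of those first tested. None of the 12 pan-endothelial calls was among them, and their list's median was 0.31 after subtraction. The gene higher in both was Gmfg, which encodes a regulator of actin branching, at 46.9, 63.0, 58.8 and 33.8 CPM in libraries 1 to 4 and at 105 and 113 CPM in libraries 5 and 6 (1.17 ± 0.18, adjusted p = 0.000104 before and 0.0454 after). The estimate rests on 147 non-endothelial barcodes in each of libraries 5 and 6. Without library 4, the library with the largest share, 49 genes were higher and 38 lower. With the share computed without germ cell genes, 5 were higher and 16 lower.

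Of the 14 lower genes, Dbh, Cck and Nefm, genes of nerve and neuroendocrine cells, and Ndufa4l2 were found in 6 to 12 members of libraries 1 to 4. Dbh, which encodes the enzyme that makes noradrenaline, stood at 0, 26.5, 47.1 and 228 CPM, with 30.9% of its UMIs in 1 cell, and had no UMI in libraries 5 and 6. Taking 3 UMIs over both of those libraries as the floor, it was at least 391-fold lower there, and at least 111-fold without library 4, which held 74 of its 94 UMIs. Nefm, a neurofilament gene, stood at 12.4, 96.2, 78.4 and 674 CPM against 0.696 and 1.81 CPM, with its highest value in library 4. Once members with 5 or more other-tissue UMIs were left out, none of these 4 genes passed the filter on low counts. Dbh and Nefm lay below the filter level of about 27.4 CPM in libraries 5 and 6, so their direction is partly fixed by the filter.

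The other 10 were Etv2, Gadd45g, Dlk1, Cadm1, Cdkn1c, Mfap2, Hpgd, Ebf1, Fkbp11 and Lmo2. Gadd45g stood at 220, 153, 267 and 221 CPM against 41.1 and 36.3 CPM (-2.43 ± 0.14, adjusted p = 7.32e-12). Dlk1 stood at 156, 328, 157 and 409 CPM against 13.8 and 11.6 CPM (-4.33 ± 0.25, adjusted p = 7.84e-12), beside a mean of 714 CPM in the non-endothelial barcodes of libraries 1 to 4. Neither overlapped, and both were lower in libraries 5 and 6 by a called margin whichever library was left out. Cadm1, a cell adhesion gene, stood at 46.9, 116, 54.9 and 163 CPM against 4.04 and 6.32 CPM (-4.13 ± 0.45, adjusted p = 1.47e-06). Mfap2, a gene of elastic microfibrils, stood at 111, 146, 165 and 178 CPM against 46.5 and 49.1 CPM (-1.58 ± 0.14, adjusted p = 7.76e-08). Ebf1, a transcription factor gene, stood at 131, 83.0, 102 and 67.7 CPM against 39.8 and 42.2 CPM (-1.21 ± 0.17, adjusted p = 5.64e-05). Each of these 3 was lower in both libraries 5 and 6 than in any of libraries 1 to 4. Cdkn1c, a cell cycle inhibitor gene, lost its call once 10 UMIs of the rule genes were asked for (-0.38, adjusted p = 0.441), and Hpgd, which encodes a prostaglandin-degrading enzyme, was not called without library 2, 3, 5 or 6 or with DESeq2 (Hpgd log2 fold change -1.61, adjusted p = 0.0837). Etv2, Dlk1 and Cadm1 lay below the filter level of about 27.4 CPM in libraries 5 and 6, so their direction is partly fixed by the filter. The cells behind the lower genes differed in part. Of the UMIs in libraries 1 to 4, the members with at least 2 Etv2 UMIs held 293 of 301 for Etv2, 200 of 275 for Gadd45g and 176 of 363 for Lmo2. The 20 members with fewer than 3 pan-endothelial UMIs held 227 of 335 for Dlk1, 82 of 121 for Cadm1 and 184 of 264 for Cdkn1c. They also held 44 of the 301 Etv2 UMIs, so these groups of members overlap.

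Asking for more evidence of endothelium reduced the number of calls, and leaving out Etv2 members reduced it further. With at least 10 UMIs of the rule genes, 30 genes were higher and 33 lower. Without members holding 5 or more other-tissue UMIs the numbers were 32 and 37. With at least 3 pan-endothelial UMIs they were 27 and 32, and without members with any Etv2 UMI 7 and 20. With both of the last conditions, which left 33, 14, 18 and 18 members in libraries 1 to 4 and 931 and 889 in libraries 5 and 6, none of 3484 genes was higher and 1 was lower (0.0287%). At an unadjusted p under 0.05 there were 113 higher and 116 lower. The gene called lower, Gm42418, was chosen for naming after its value was seen. These last 3 conditions were added after the data had been seen, and the 2 that use pan-endothelial genes make those genes part of the choice.

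**Figure D4:**
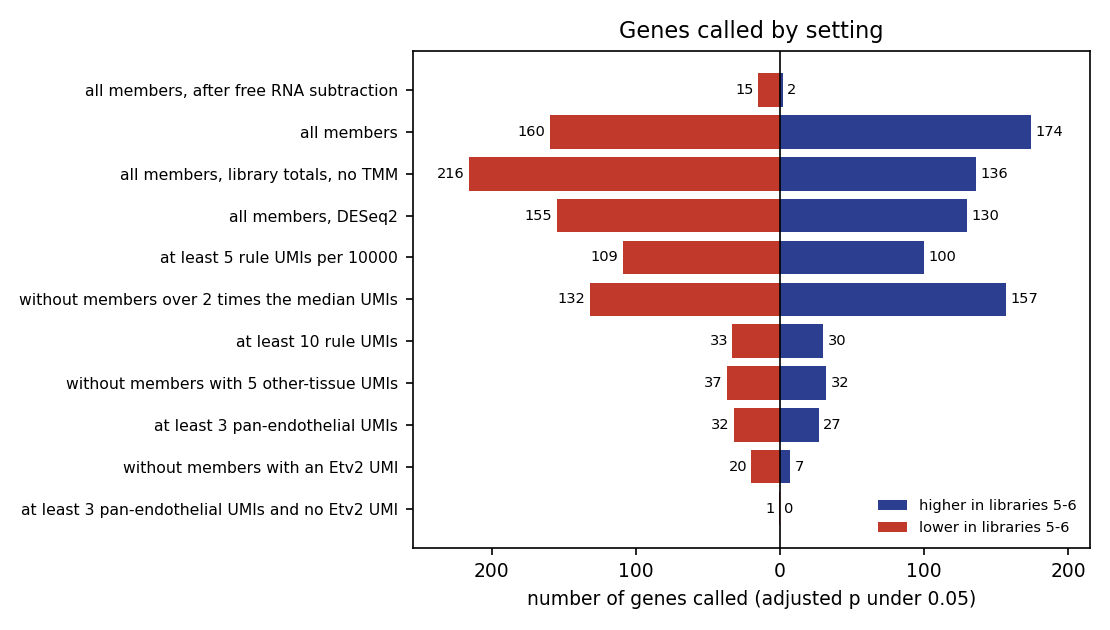
Number of genes called higher (blue, right) and lower (red, left) in libraries 5 and 6 at an adjusted p under 0.05 (x axis) under each choice of members or of scaling (y axis). The bars shrink from 174 and 160 for all members to 0 and 1 for members with pan-endothelial UMIs and no Etv2 UMI.

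In that narrower set the differences themselves were smaller and the standard errors larger. Of the 174 genes called higher, 160 were tested again, and their median log2 fold change was 0.58 before and 0.14 after, with 133 of the same sign and 157 smaller. The median standard error of these 160 rose from 0.124 to 0.137. Of the 160 called lower, 92 were tested again, with medians of -0.56 and -0.18, 78 of the same sign and 88 smaller, and a median standard error of 0.131 before and 0.177 after. Since the genes were chosen for their size in the larger set, part of such a shift is built into the choice, and its share was not tested. The medians of the lists moved from 0.45 to -0.01 for the 7 venous genes and from 0.43 to -0.08 for the 11 matrix genes tested in both. With only the Etv2 members left out, Gadd45g was still called (-1.13, adjusted p = 0.0203), and so was Dlk1 (-3.94, adjusted p = 2.66e-06). Ebf1 (-0.21, adjusted p = 0.797), Fkbp11 (0.10, adjusted p = 0.923) and Lmo2 (0.10, adjusted p = 0.812) did not.

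**Figure D5:**
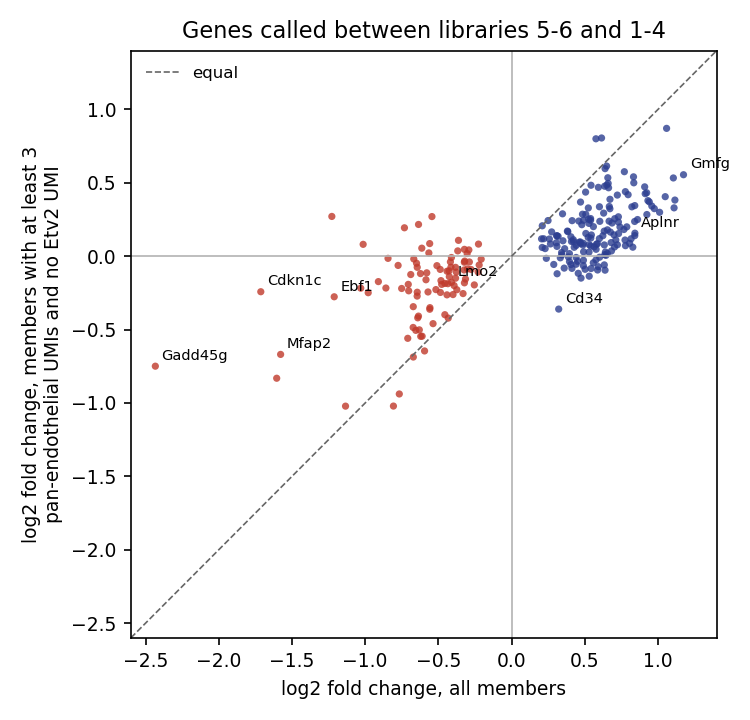
Log2 fold change of the called genes over all members (x axis) against the same in members with at least 3 pan-endothelial UMIs and no Etv2 UMI (y axis), 1 point per gene, blue for higher and red for lower in libraries 5 and 6. Most points lie nearer to 0 on the y axis than on the x axis, with medians of 0.58 and 0.14 for the blue points and -0.56 and -0.18 for the red ones.

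Per library, the levels of several vessel genes overlapped in the narrower set. Cdh5 stood at 270, 289, 288 and 347 CPM in libraries 1 to 4 and 326 and 330 CPM in libraries 5 and 6. Pecam1 stood at 217, 217, 217 and 152 CPM against 184 and 184 CPM, and Aplnr at 255, 260, 294 and 352 CPM against 319 and 312 CPM. In each of these 3 the values of libraries 5 and 6 lay within the range of libraries 1 to 4. Cd34 did not overlap, at 514, 550, 588 and 634 CPM in libraries 1 to 4 against 427 and 438 CPM, higher in libraries 1 to 4 and so opposite to its direction over all members, and it was not called (log2 fold change -0.36, adjusted p = 0.202). For Cdh5 and Pecam1 this is a description, since the choice used endothelial genes. Cd34 is also on the pan-endothelial list used for the choice, so its levels and its test in the narrower set are partly fixed by that choice.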

How the data were processed

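The authors deposited raw UMI counts per gene and barcode as 1 matrix over all samples, of 27998 genes and 9492 barcodes, not normalised, made with Cell Ranger and the mm10 build per the submitters' processing notes (versions are not given in the sources used here). Names of genes and barcodes, also deposited, carry no unit. The 3 sorted samples share this matrix. Counts of members were summed per barcode suffix and tested with edgeR 4.0.16 (filterByExpr, TMM, quasi-likelihood test, Benjamini-Hochberg adjustment, calls under 0.05) in R 4.3.3, and DESeq2 1.42.0 was an alternative. The script was tested on simulated data. The genes of the rule took no part in calls. Free RNA was estimated from 42 other-tissue markers. Kit did not pass the filter on low counts, so its CPM were compared by an exact permutation test, in place of the planned edgeR test. Doublets were not called with a tool, and alternatives without members of high UMIs or of other-tissue UMIs bear on them. Named genes were the 12 with the largest change per direction called before and after free RNA subtraction at 20 CPM or more, the 4 most abundant and every called member of 15 lists, the sorting antigens and the rule genes. Fkbp11 and Lmo2 complete the genes called both times, and genes described in Etv2 members were chosen after their values were seen. Members and lists were chosen with earlier results of these data known. Gene positions are from RefSeq GRCm38.p6, which matched 593 of 601 listed symbols.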

Additional observations from a re-analysis of the deposited data

Results flagged for a closer look

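In 5 of 62 groups of 4 values, 1 library of libraries 1 to 4 lay far from the other 3 (chance gives about 1 in 20 groups). Nefm stood at 674 CPM in library 4 against at most 96.2 CPM in the others. Cd34 was lowest in library 2 at 295 CPM, where the others lay between 358 and 369 CPM. Eng was highest in library 2 at 146 CPM against 108 to 114 CPM. Flt4 was lowest in library 4 at 46.1 CPM against 82.4 to 84.0 CPM. Itga2b was highest in library 1 at 24.7 CPM against at most 3.92 CPM. It belongs to the megakaryocyte list, of which 98.3% of the UMIs in library 1 came from 1 cell.

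Libraries 7 and 8, which enter no comparison here, held 14 members, 5 and 9. Their summed Cdh5 stood at 274 and 310 CPM, Kit at 13.7 and 11.5 CPM, and Etv2 at 13.7 and 5.75 CPM.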

How the results depend on the processing

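Counts of genes called are given as higher and lower in libraries 5 and 6, against 174 and 160. With every gene of at least 1 UMI tested they were 474 and 365, with at least 10 rule UMIs 30 and 33, without members of 5 other-tissue UMIs 32 and 37, and with 5 rule UMIs per 10000 UMIs 100 higher. With the conditions added after seeing the data they were 27 and 32 (3 pan-endothelial UMIs), 7 and 20 (no Etv2) and 0 and 1 (both). Leaving out 1 library gave 26 to 160 higher and 34 to 153 lower, lowest without library 5 or 6, where the lone library is assumed to vary like the others, and 85 and 69 without library 2, 115 and 102 without library 3. Without TMM scaling, 38.6% of the calls were higher (136 against 216), where TMM gave 52.1%. After free RNA subtraction (2 higher and 15 lower) the counts higher were 1 without TMM, 4 with DESeq2, 136 with at least 1 UMI, 0 with at least 10 UMIs in 4 libraries, 10 with 10 rule UMIs, 9 with 5 per 10000, 17 without other-tissue members, 10 with 3 pan-endothelial UMIs, 0 without Etv2, 1 with both, 0 with 2 times the share 0 with a share computed without Stmn2 and 5 with one computed without germ cell genes, also chosen after seeing the data. The counts lower that moved were 174 with at least 1 UMI, 9 with at least 10 UMIs in 4 libraries, 1 without Etv2, 3 with both and 0 with 2 times the share. Leaving out 1 library gave 0 to 49 higher and 7 to 38 lower. The cause was not tested.

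The free RNA share differed by -21.8 to -12.1 percentage points, the arterial share by -11.3 to -6.50 points and Kit by 1.56 to 3.89 CPM when 1 library was left out, and Kit by -0.377 CPM without Etv2 members. Signs turned with at least 3 pan-endothelial UMIs and no Etv2 for Ecscr (-0.12), Cd34 (-0.36), Pecam1 (-0.095), Esam (-0.064), Icam2 (-0.071), Col18a1 (-0.094), Id1 (0.19) and Id2 (0.22). Ecscr, Cd34, Pecam1, Esam and Icam2 are on the pan-endothelial list used for that choice, so their turn is partly built into it. Without Etv2 members alone signs turned for Cd34 (-0.081) and Lmo2 (0.10), and for Id2 with 10 rule UMIs (0.033) or without other-tissue members (0.076). No paired analysis was possible because the labels give 1 sample per group and no replicate numbers for the libraries. Summed depth in libraries 1 to 4, 254961 to 404768 UMIs, limits what could be tested: 1 UMI there is worth 2.47 to 3.92 CPM.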

Other observations

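Some genes outside the lists stayed called both with at least 10 rule UMIs and without members of 5 other-tissue UMIs. Together with the list genes these were 23 of the 174 higher and 22 of the 160 lower in libraries 5 and 6. The 2 settings tested 4336 and 4000 genes, against 4879 over all members. When the call also had to stay without Etv2 members, 5 higher and 7 lower were left. The genes named here were chosen after their values were seen. Arpc1b, a subunit of the Arp2/3 complex that branches actin filaments, stood at 343, 275, 318 and 351 CPM in libraries 1 to 4 and at 517 and 491 CPM in libraries 5 and 6 (log2 fold change 0.68 ± 0.08, adjusted p = 6.03e-06 by edgeR's quasi-likelihood test). Tagln2, an actin-binding protein gene, stood at 371, 262, 326 and 369 CPM against 544 and 547 CPM (0.74 ± 0.09, adjusted p = 2.9e-06). Neither gene overlapped between the sets. Without Etv2 members the values were 0.40 (adjusted p = 0.0272) and 0.46 (adjusted p = 0.00844), and after free RNA subtraction 0.42 (adjusted p = 0.222) and 0.50 (adjusted p = 0.18).

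Among the lower genes were Mdk, which encodes the growth factor midkine, and Sox11, a transcription factor gene of progenitor cells. Mdk stood at 1169, 1666, 1412 and 1464 CPM against 733 and 736 CPM (-0.91 ± 0.08, adjusted p = 5.96e-08), and Sox11 at 205, 249, 180 and 323 CPM against 117 and 112 CPM (-1.03 ± 0.13, adjusted p = 6.82e-06). The sets did not overlap. The non-endothelial barcodes of libraries 1 to 4 held more of both, at means of 2659 and 504 CPM. After free RNA subtraction their log2 fold changes were -0.50 (adjusted p = 0.314) and -0.52 (adjusted p = 0.24).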
